A study of Mus musculus with 2 samples.

Results

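The 8 genes described here act in the local handling of glucocorticoids or respond to them, among 32285 genes counted in single cells of the mouse uterus. They were chosen by name: Hsd11b1 and Hsd11b2 (the converting enzymes), Nr3c1 and Nr3c2 (the receptors), and Fkbp5, Tsc22d3, Zbtb16 and Per1 (the response genes). All 8 were found in both libraries. Whole uteri from females aged 6 months were dissociated and profiled by droplet sequencing of the 3-prime ends of transcripts. The control library came from mice with floxed Prickle1 alleles (Prickle1 f/f) and the conditional knockout library, cKO, from mice with the same floxed alleles plus an Ltf-driven Cre (Prickle1 f/f Ltf-cre). Each library was a pool of 3 mice and each group 1 library, so genotype, animals, dissociation and library cannot be told apart. The titles give these groups, while the genotype entry calls both samples C57BL/6J wild-type. Ltf is transcribed in the uterine epithelium, at which the Cre is therefore aimed. The floxed Prickle1 alleles are shared by both libraries. No p-value is given, and every interval is an exact 95% interval that covers counting error only.

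Corticosterone, the main glucocorticoid of mice, is inactivated to a keto form by the dehydrogenase that Hsd11b2 encodes and regenerated from it by the reductase that Hsd11b1 encodes, so a cell can set its own exposure apart from the blood level. Active hormone binds the glucocorticoid receptor (Nr3c1) and the mineralocorticoid receptor (Nr3c2), and the bound receptor moves to the nucleus and regulates genes. In kidney and colon epithelium the Hsd11b2 enzyme keeps glucocorticoids from the mineralocorticoid receptor. In the uterus glucocorticoid action is known to oppose several effects of oestrogen. Fkbp5 encodes a co-chaperone that lowers receptor affinity, Tsc22d3 the leucine-zipper protein GILZ, Zbtb16 the zinc-finger factor PLZF, which also specifies innate-like T cells, and Per1 a repressor of the circadian clock.

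The control library held 45035801 unique molecular identifiers (UMIs) and the cKO library 57145553. Barcodes with at least 500 genes and at most 20% mitochondrial UMIs gave 3653 control and 4950 cKO cells, with medians of 4650 and 5944 UMIs. Only 6 barcodes with at least 500 genes were shared by the libraries. The mitochondrial limit left out 283 control and 46 cKO barcodes. Prickle1 itself was low, at 2.65 CPM (UMIs of the gene per 1000000 UMIs of the summed cells) over all control cells and 8.24 over all cKO cells. In the Epcam-gated cells described next, at which the Cre is aimed, it was 0.801 CPM in control (0.448 to 1.32, 15 UMIs) and 3.24 CPM in the cKO (1.85 to 5.26, 16 UMIs). This direction runs against the genotype labels. The 3-prime tags need not lie in the deleted part, which the labels do not give, so the gene does not check the genotypes. Ltf, which drives the Cre, was 1511 CPM in control (28291 UMIs) and 120 CPM in cKO Epcam-gated cells (594 UMIs). The cause of that difference was not tested. Control and cKO below mean the libraries that carry the genotype labels.

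Cells were assigned to 6 classes by the gate gene with the most UMIs, which were Epcam (epithelial), Pdgfra (stromal), Actg2 (muscle), C1qa (macrophage), Flt3 (dendritic) and Cd3e or Ncr1 (lymphoid). Control and cKO cells numbered 1002 and 149 epithelial, 682 and 1590 stromal, 303 and 551 muscle, 256 and 134 macrophage, 46 and 148 dendritic, and 159 and 448 lymphoid. A further 1205 and 1930 cells stayed ungated. The stromal gate held the 6 stromal markers, collagen and proteoglycan genes and Pdgfrb, at a summed 11428 and 11860 CPM, beside 120 and 14.3 CPM of the 6 epithelial markers. In the cKO the Epcam gate was mixed: the epithelial markers summed to 6354 CPM, the stromal to 3689 and the 3 mesothelial to 331, against 10867, 333 and 20.7 CPM in control. Epithelial values are therefore also given for the Epcam-gated cells in which keratin and junction markers outnumbered stromal ones, called keratin-led, of which there were 961 in control and 71 in the cKO. These too differed in other markers. Control and cKO sums were 38.5 and 543 CPM for muscle, 25.5 and 118 for stromal and 10.3 and 89.7 for lymphoid markers. They were 336 and 196 CPM for dendritic and 70.6 and 21.9 for macrophage markers. The part of such RNA in the keratin-led ratios was not tested. Macrophage-gated cells carried more UMIs of the dendritic list (9337 and 13120 CPM), which includes the antigen-presentation genes H2-Aa and Cd74, than of the macrophage list (3868 and 4463 CPM). Muscle cells were shallow, with median UMIs of 1555 and 1605, and held stromal markers at 1908 and 2970 CPM.

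Of the promoter windows that RefSeq gives on GRCm38.p6, 8 matched 5 members. They were searched on both strands for the consensus palindromic glucocorticoid response element, in which inverted TGTTCT arms are spaced by 3 bases, for the single arm TGTTCT, for the cyclic-AMP element TGACGTCA and for the clock-factor E-box CACGTG. The arm lies within the full site. The full site occurred in none of the 8 windows and in 0.00913% of all 32851 windows of 300 bases. The arm was in 1 member window against 19.0% of all windows, the E-box in 2 against 7.15%, and the cyclic-AMP element in none against 1.79%. Below are the stretches from 250 to 101 bases before the start that hold a match, shown because they belong to 3 of the 4 response genes compared here. The start is that of 1 RefSeq transcript, which in all 3 lies inside the span of the gene's GENCODE annotation and not at its 5-prime end. Capitals mark the match, which lies 185 bases before that start in Tsc22d3, 166 in Per1 and 169 in Fkbp5. A match is a string of letters and not a measured binding site.
Tsc22d3, chrX:140600623-140600772, minus strand: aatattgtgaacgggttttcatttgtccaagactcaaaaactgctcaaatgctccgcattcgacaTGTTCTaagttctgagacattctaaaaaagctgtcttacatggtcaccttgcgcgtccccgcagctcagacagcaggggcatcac
Per1, chr11:69098699-69098848, plus strand: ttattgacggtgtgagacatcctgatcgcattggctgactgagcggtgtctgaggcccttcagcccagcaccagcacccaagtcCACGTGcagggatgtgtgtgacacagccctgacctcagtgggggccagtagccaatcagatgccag
Fkbp5, chr17:28486250-28486399, minus strand: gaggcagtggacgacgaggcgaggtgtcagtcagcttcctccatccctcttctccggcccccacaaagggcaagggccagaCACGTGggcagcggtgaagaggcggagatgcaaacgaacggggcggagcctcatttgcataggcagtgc

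Hsd11b2, the glucocorticoid-inactivating enzyme, was highest in stroma in the class sums of both libraries. It was 5.02-fold higher (4.44 to 5.70) in cKO than in control stroma. The gene (ENSMUSG00000031891) lies on chromosome 8 from 105518755 to 105523988 on the plus strand of GRCm38. In control its level was 28.6 CPM in stroma (25.3 to 32.2, 271 UMIs), 13.1 in muscle, 5.23 in dendritic, 1.27 in lymphoid, 1.17 in epithelial and 0.444 in macrophage cells. In these sums stroma stood apart from the next class, muscle, while the intervals of all neighbours below it overlapped. In the cKO the order was stroma at 143 CPM (139 to 148, 4160 UMIs), muscle at 97.7, epithelial at 18.4, macrophage at 11.4, dendritic at 11.4 and lymphoid at 6.39. Here stroma and muscle each stood apart from the class that followed, and the intervals of the other neighbours overlapped.

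Outside the stroma, Hsd11b2 overlapped or lay below the level of the cell-free RNA in the cKO. Barcodes with at most 100 UMIs held Hsd11b2 at 9.31 CPM in control and 82.7 CPM in the cKO (71.3 to 95.4). Muscle, at 97.7 CPM in the cKO (84.4 to 113), overlapped that interval, and 41 of its 192 UMIs came from 1 cell. Muscle cells were 7.46-fold higher in the cKO (4.08 to 15.2), in shallow cells with more stromal marker UMIs than in control. On the log2 scale this muscle ratio was 2.84 with 0.5 UMI added, 1.58 as a mean over cells and 1.02 with thinned cells. Whether the cell-free RNA or stromal UMIs account for that ratio was not tested. In the cKO 1 cell held 13 of 16 UMIs in macrophages, 13 of 17 in lymphoid cells and 25 of 34 in keratin-led epithelial cells, but 11 of 26 in dendritic cells and 25 of 91 in the whole Epcam gate. Keratin-led cells held 1.05 CPM in control and 11.3 CPM in the cKO, both below the cell-free level of their library. Stroma held the gene above the cell-free level in both libraries.

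A larger share of stromal cells carried Hsd11b2 in the cKO, and those that did carried more UMIs of it. A UMI was found in 75 of 682 control cells (10.997%, 8.75 to 13.6) and 668 of 1590 cKO cells (42.0%, 39.6 to 44.5). After each cell was thinned to 1000 UMIs the shares were 1.79% (0.926 to 3.10) of 672 cells and 10.5% (9.04 to 12.1) of 1579. Thinned muscle cells had 2.78% (1.12 to 5.64) of 252 in control, which overlapped stroma. In the cKO they had 4.81% (3.04 to 7.20) of 457, below stroma. Thinned macrophages, which should lack the gene, had 0 of 253 control cells, allowing up to 1.19%, and 0 of 132 cKO cells, allowing up to 2.27%. Median depths were 8503.5 and 9215.5 UMIs in macrophages and 12676 and 16225 in stroma. Positive cells had a median of 1 UMI in control and 3 in the cKO, and the highest cell had 34 and 86. In control 3 cells with at least 10 UMIs held 33.2% of the stromal total, and in the cKO 126 such cells held 57.9%.

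**Figure D1:**
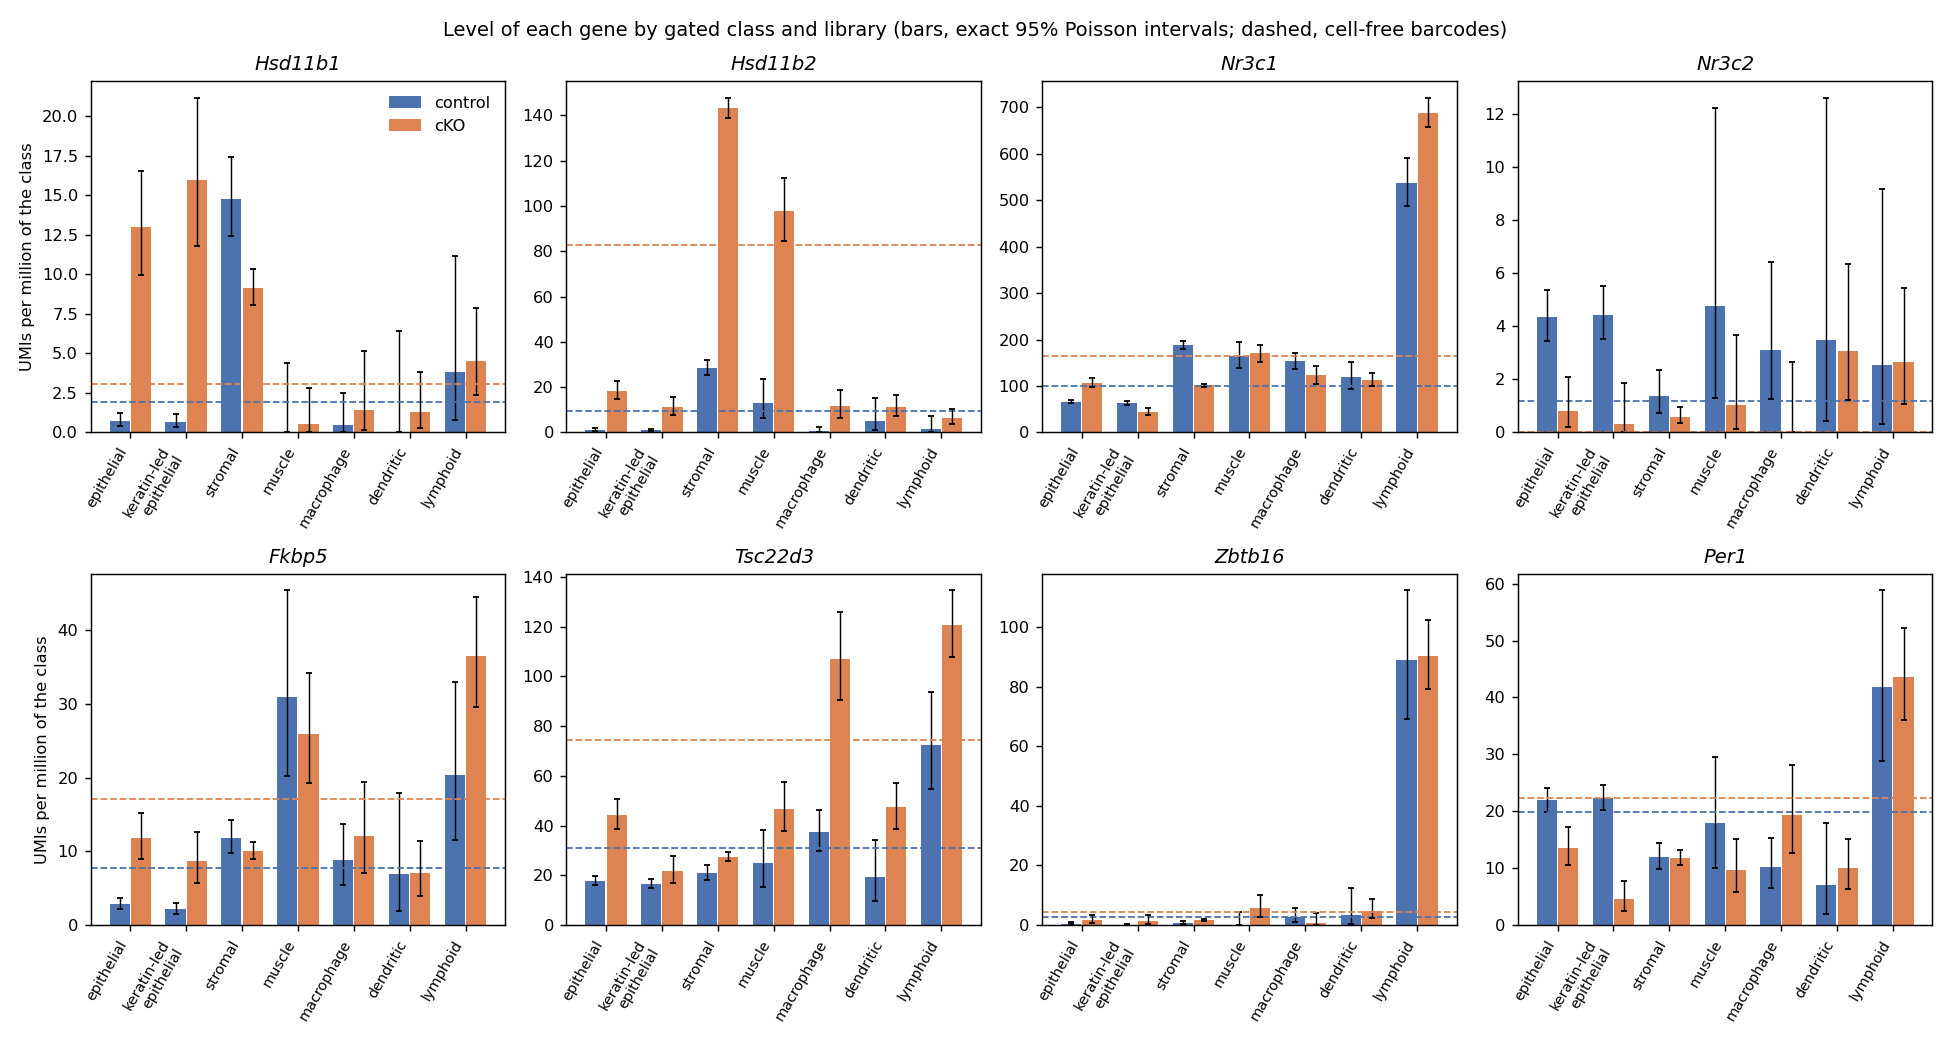
Level of each of the 8 genes, in CPM of the class total, by gated class for the control and cKO libraries. Error bars are exact 95% Poisson intervals and dashed lines the cell-free barcodes of each library. Hsd11b2 is highest in cKO stroma at 143 CPM, and Nr3c1 and Zbtb16 are highest in lymphoid cells of both libraries.

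Hsd11b1, the regenerating enzyme (ENSMUSG00000016194; chromosome 1, 193221634 to 193264075, minus strand), was lower in cKO than in control stroma. Its stromal level was 14.8 CPM in control (12.4 to 17.4, 140 UMIs) and 9.14 CPM in the cKO (8.07 to 10.3, 265 UMIs), a ratio of 0.619 (0.503 to 0.765). Within each of the 5 stromal groups defined further on, the interval of that ratio spanned 1, while it was 0.513 (0.340 to 0.766) in the stromal cells of no such group. Stromal cells as a whole thus held 65.9% of their UMIs of the 2 enzymes as Hsd11b2 in control (61.1 to 70.5) and 94.0% in the cKO (93.3 to 94.7). In Epcam-gated cells Hsd11b1 was 0.748 CPM in control (14 UMIs in 13 cells) and 12.96 CPM in the cKO (64 UMIs in 29 cells). The keratin-led cells alone gave 0.663 and 15.95 CPM (11.8 to 21.2), with the 48 cKO UMIs spread over 19 of 71 cells and at most 8 in 1 cell. This is above the cell-free level of 3.06 CPM in the cKO, and the ratio was 24.1 (12.6 to 49.7). After thinning, 1 of 149 cKO Epcam-gated cells (0.671%, 0.0170 to 3.68) and 0 of 995 control cells (allowing up to 0.302%) had a Hsd11b1 UMI, which does not set the libraries apart at this depth. The thinned shares of stromal cells, 1.64% (0.820 to 2.91) in control and 0.887% (0.486 to 1.48) in the cKO, also overlapped. Muscle, macrophage and dendritic cells had 0 to 3 UMIs in each library, and lymphoid cells 3 in control and 12 in the cKO. In CPM of the summed cells stroma was the highest class in control and Epcam-gated cells the highest in the cKO, each apart from the class that followed, while the thinned shares of these classes in the cKO overlapped.

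A Hsd11b1 UMI was seen about as often in stromal cells with Hsd11b2 as in those without it, although the former were deeper. In the cKO, Hsd11b1 was seen in 73 of 668 stromal cells with Hsd11b2 (10.9%, 8.66 to 13.5) and 103 of 922 without it (11.2%, 9.21 to 13.4). The control shares were 14.7% (7.56 to 24.7) and 12.5% (9.99 to 15.4). Cells with Hsd11b2 were deeper, with median UMIs of 19553.5 against 14451.5 in the cKO and 19439 against 12493 in control. After thinning the cKO shares overlapped, at 1.81% (0.374 to 5.19) of 166 cells with Hsd11b2 and 0.778% (0.389 to 1.39) of 1413 without. In control they were 0 of 12 and 1.67% (0.835 to 2.96) of 660. In CPM, Hsd11b1 was 0.647-fold (0.503 to 0.831) as high in the cKO cells with Hsd11b2 as in those without, and 0.913-fold (0.524 to 1.50) in control.

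The glucocorticoid receptor gene Nr3c1 was highest in lymphoid cells and lower in cKO than in control stroma. Its control level was 538 CPM in lymphoid cells (488 to 592), 188 in stroma, 164 in muscle, 153 in macrophages, 120 in dendritic and 66.1 in epithelial cells. Lymphoid and dendritic cells each stood apart from the class below, and the others overlapped their neighbours. In the cKO lymphoid cells had 689 CPM (657 to 721), muscle 170, macrophages 123, dendritic cells 113, epithelial cells 107 and stroma 101 (97.8 to 105). The control intervals of stroma, muscle and macrophages overlapped in that order, as did those of macrophages, dendritic cells, epithelial cells and stroma in the cKO. The stromal ratio was 0.541 (0.509 to 0.574) from 1780 and 2942 UMIs. The lymphoid ratio was 1.28 (1.15 to 1.43) and the macrophage ratio 0.801 (0.663 to 0.965). The cell-free level was 100.5 CPM in control and 164 CPM in the cKO, and in the cKO every gated class other than lymphoid cells and muscle lay below the cell-free level.

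Within the lymphoid gate Nr3c1 followed the T cells. Cells with more Cd3e than Ncr1 numbered 139 in control and 412 in the cKO, and their Nr3c1 level was 652 CPM (590 to 720) and 737 CPM (703 to 773). Cells with more Ncr1, a natural killer gate of 20 and 36 cells, had 133 CPM (84.0 to 199) and 305 CPM (245 to 374). The ratio was 1.13 (1.01 to 1.26) in the first and 2.30 (1.44 to 3.81) in the second. The direction in Epcam-gated cells depended on which cells were kept: 66.1 and 107 CPM over all of them, a ratio of 1.62 (1.46 to 1.79), but 62.9 and 44.2 CPM over the keratin-led cells, a ratio of 0.703 (0.583 to 0.842).

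The mineralocorticoid receptor gene Nr3c2 was sparse in every gated class. Control epithelial cells held 81 of the 135 control UMIs, at 4.33 CPM (3.44 to 5.38) in 56 cells and above the cell-free level of 1.16 CPM. The cKO Epcam gate held 4 UMIs, at 0.810 CPM (0.221 to 2.07), a ratio of 0.187 (0.0498 to 0.498). Keratin-led cells had 80 UMIs in control and 1 in the cKO, 0.332 CPM, a ratio of 0.0752 (0.00188 to 0.431). Stroma held 13 and 17 UMIs, or 1.37 and 0.586 CPM. All neighbouring classes overlapped in both libraries, and the remaining 4 classes held 0 to 7 UMIs each.

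Tsc22d3, which encodes GILZ, was the response gene that stood higher in the cKO in all 6 gated classes. The gene spans 140539528 to 140600659 of chromosome X, minus strand. Control levels were 72.3 CPM in lymphoid cells, 37.3 in macrophages, 25.01 in muscle, 21.0 in stroma, 19.2 in dendritic and 17.8 in epithelial cells. The cKO levels were 121 CPM in lymphoid cells, 107 in macrophages, 47.3 in dendritic cells, 46.8 in muscle, 44.3 in epithelial cells and 27.5 in stroma. Ratios ran from 1.31 in stroma (1.12 to 1.54) to 2.87 in macrophages (2.18 to 3.795), with 2.49 in epithelial, 2.47 in dendritic, 1.87 in muscle and 1.67 in lymphoid cells. In keratin-led cells the interval reached 1, at 16.6 and 21.9 CPM and a ratio of 1.32 (0.994 to 1.73). The heat-shock gene Hspa1a, a mark of dissociation stress, was also higher in cKO dendritic cells (7.57-fold), macrophages (4.23-fold), muscle (2.74-fold), Epcam-gated cells (2.12-fold) and stroma (just under 2.00-fold), but 1.06-fold (0.680 to 1.71) in lymphoid cells. Its part in the Tsc22d3 ratios was not tested.

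Tsc22d3 was also higher in the cell-free barcodes, at 31.0 CPM in control and 74.4 CPM in the cKO. Lymphoid cells lay above the cell-free interval in both libraries and macrophages in the cKO only. After thinning, cells with a Tsc22d3 UMI made up 3.95% (1.91 to 7.15) of control and 14.4% (8.89 to 21.6) of cKO macrophages, and 0.893% (0.328 to 1.93) and 2.53% (1.82 to 3.43) of stromal cells. In lymphoid cells the thinned shares were 10.2% (5.94 to 16.02) and 9.44% (6.89 to 12.5), and the difference between libraries seen in the sums did not appear. The log2 ratio of thinned counts was 0.08 in lymphoid cells, 0.01 in muscle and 0.19 in dendritic cells, but 2.04 in macrophages and 1.27 in stroma.

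Zbtb16, which encodes PLZF, was a lymphoid gene and did not differ there between the libraries beyond counting error. The gene spans 48654297 to 48836222 of chromosome 9, minus strand. Lymphoid cells held 88.8 CPM in control (69.2 to 112, 70 UMIs in 40 cells) and 90.2 CPM in the cKO (79.2 to 102, 240 UMIs in 140 cells), a ratio of 1.02 (0.775 to 1.35). The T gate had 111 and 99.1 CPM and the natural killer gate 11.5 and 20.1 CPM from 2 and 6 UMIs. No other class exceeded the 5.60 CPM of cKO muscle, which rests on 11 UMIs. Stroma had 7 and 48 UMIs, 0.738 and 1.65 CPM (ratio 2.24, 1.01 to 5.87), with intervals that overlapped those of the cell-free 2.72 and 4.38 CPM.

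Fkbp5 was higher in lymphoid cells of the cKO than of the control, on few control UMIs, and did not differ beyond counting error in stroma. Control levels were 31.0 CPM in muscle, 20.3 in lymphoid cells, 11.8 in stroma, 8.89 in macrophages, 6.97 in dendritic and 2.83 in epithelial cells, each overlapping the next. In the cKO they were 36.5 CPM in lymphoid cells, 26.0 in muscle, 12.1 in macrophages, 11.7 in epithelial cells, 10.1 in stroma and 7.01 in dendritic cells. The lymphoid ratio was 1.80 (1.05 to 3.27), from 16 and 97 UMIs. In T-gated cells the level was 13.02 CPM in control (8 UMIs in 6 cells, with 3 UMIs in 1 cell) and 36.8 CPM in the cKO (87 UMIs in 68 cells), a ratio of 2.83 (1.37 to 6.76). The control T interval overlapped that of the cell-free RNA. Natural killer cells had 46.1 and 33.5 CPM from 8 and 10 UMIs, a ratio of 0.726 (0.258 to 2.12). After thinning, the shares of T-gated cells with a Fkbp5 UMI overlapped, at 1.46% (0.177 to 5.17) and 3.91% (2.25 to 6.28). Keratin-led epithelial cells had 2.16 and 8.64 CPM, a ratio of 4.01 (2.34 to 6.75). The control level lay below the cell-free 7.76 CPM, and the cKO interval overlapped that of the cell-free 17.1 CPM. The stromal ratio was 0.856 (0.686 to 1.07).

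Per1, the clock repressor, was likewise highest in lymphoid cells, at 41.9 CPM in control (28.8 to 58.8) and 43.6 CPM in the cKO (36.0 to 52.3). In stroma it was 12.02 and 11.9 CPM, a ratio of 0.987 (0.796 to 1.23). The Epcam gate held 21.9 CPM in control and 13.6 CPM in the cKO, a ratio of 0.619 (0.471 to 0.804), and keratin-led cells 22.3 CPM (20.2 to 24.6) and 4.65 CPM (2.54 to 7.81), a ratio of 0.209 (0.113 to 0.355). The thinned counts of Epcam-gated cells did not keep this direction, with a log2 ratio of 0.12. Macrophages had 10.2 and 19.3 CPM from 23 and 27 UMIs, a ratio of 1.89 (1.04 to 3.45), and thinning turned this to a log2 ratio of -0.65.

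**Figure D2:**
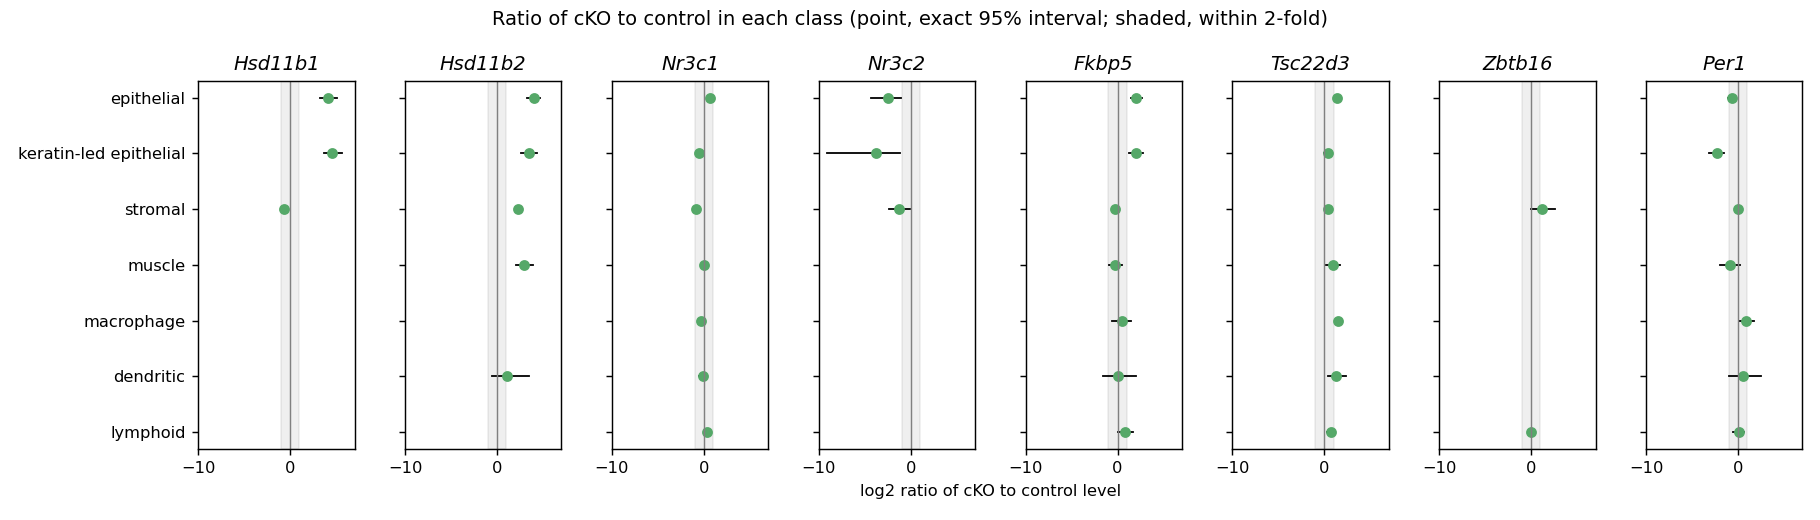
Log2 ratio of cKO to control level for each gene and class, with exact 95% intervals and the zone within 2-fold shaded. Only sums with at least 20 UMIs over both libraries are drawn. Hsd11b2 lies to the right in stroma at 5.02-fold, Nr3c1 to the left in stroma at 0.541-fold, and Tsc22d3 to the right in all 6 gated classes.

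Set against all genes, the members' counts were as follows. In stroma all 8 had at least 20 UMIs over both libraries: 2 were at least 2-fold higher in the cKO, Hsd11b2 and Zbtb16, and 1 at least 2-fold lower, Nr3c2. Among 13958 genes 5.2% were that much higher and 7.92% that much lower. In Epcam-gated cells 4 of 7 members were higher (Hsd11b1, Hsd11b2, Fkbp5, Tsc22d3) and 1 lower (Nr3c2), where 29.8% of all genes were higher and 9.44% lower. For keratin-led cells these counts were 3 higher and 2 lower of 7, against 24.1% and 10.4%. Higher members numbered 1 of 5 in muscle (Hsd11b2, background 7.44%), 1 of 4 in macrophages (Tsc22d3, 12.1%), 1 of 5 in dendritic cells (Tsc22d3, 15.6%) and 0 of 5 in lymphoid cells (8.56%). Within the lymphoid gate Fkbp5 was the 1 of 5 members higher in T-gated cells (9.24%), and Nr3c1 and Tsc22d3 were both members measured in natural killer cells and both higher (10.6%). Dendritic Hsd11b2 was 2.18-fold higher on 3 and 26 UMIs but under 2-fold once 0.5 UMI was added to each count. No member was 2-fold lower in those 4 classes, where 4.07%, 3.89%, 5.02% and 3.38% of all genes were, nor in T-gated (2.93%) or natural killer cells (6.93%). Over all genes the median log2 ratio stood at -0.04 in stroma, but 0.47 in Epcam-gated cells, 0.33 in keratin-led cells, 0.24 in macrophages, 0.25 in dendritic and 0.12 in lymphoid cells, so ratios in those classes lie on a raised base.

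Within stroma, cells with Hsd11b2 differed little from those without it in the response genes. Tsc22d3 was 24.2 CPM in 922 cKO cells without Hsd11b2 and 30.5 CPM in 668 with it, a ratio of 1.26 (1.09 to 1.46), and 20.3 and 25.01 CPM in control, a ratio of 1.23 (0.820 to 1.80). Fkbp5 was 11.8 and 8.64 CPM in the cKO, a ratio of 0.733 (0.578 to 0.929), and 12.2 and 9.09 CPM in control, a ratio of 0.743 (0.371 to 1.36). Per1 was 12.9 and 10.96 CPM in the cKO, a ratio of 0.850 (0.684 to 1.06), and 12.6 and 8.34 CPM in control, a ratio of 0.661 (0.320 to 1.23). Zbtb16 had 48 stromal UMIs in the cKO and a ratio of 0.946 (0.515 to 1.74). The receptor gene Nr3c1 was lower in cells with Hsd11b2 in both libraries, at 144 against 195 CPM in control (ratio 0.739, 0.633 to 0.860) and 89.9 against 115 CPM in the cKO (ratio 0.784, 0.728 to 0.843). None of these genes passed 2-fold. Among all genes 6.09% were at least 2-fold higher and 6.42% at least 2-fold lower in control, and 4.12% and 4.86% in the cKO.

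Because the cells with Hsd11b2 were deeper, the split was repeated at equal depth, on log2 ratios with 0.5 UMI added. With every cell thinned to 1000 UMIs the cKO log2 ratio of Tsc22d3 turned from 0.34 to -0.15, and within 5 bins of matched depth it was 0.39. For Fkbp5 in the cKO the values were -0.45 in the sums, -0.38 thinned and -0.19 in matched bins. Control Fkbp5 turned from -0.38 to 0.88 on thinning, from 12 UMIs before thinning in the cells with Hsd11b2. Response genes did not follow the amount of Hsd11b2 in a common direction. In cKO cells with 0, 1, 2 to 4, and 5 or more Hsd11b2 UMIs, Nr3c1 was 115, 112, 93.5 and 77.8 CPM and Tsc22d3 was 24.2, 22.5, 30.8 and 33.9 CPM. Fkbp5 was 11.8, 8.39, 6.59 and 10.0 CPM over the same cells and Per1 12.9, 8.99, 13.0 and 10.6 CPM. Of these genes only Nr3c1 went in a single direction throughout. In the control cells, of which 41, 17 and 17 carried Hsd11b2 in those amounts, neither Nr3c1 nor Tsc22d3 did. There Nr3c1 was 195, 134, 174 and 140.1 CPM and Tsc22d3 was 20.3, 30.6, 11.1 and 25.7 CPM.

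**Figure D3:**
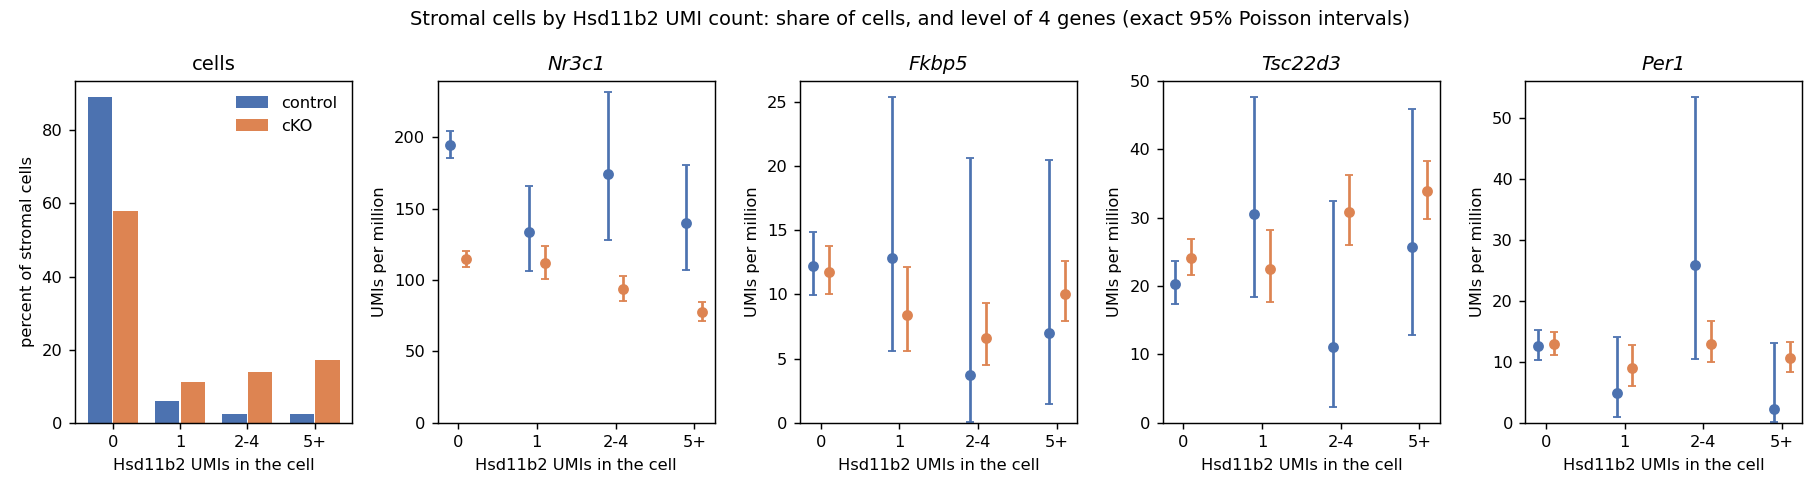
Stromal cells grouped by their Hsd11b2 UMI count, with the percent of cells in each group (left) and the level of Nr3c1, Fkbp5, Tsc22d3 and Per1 in CPM with exact 95% Poisson intervals. In the cKO Nr3c1 falls throughout from 115 to 77.8 CPM. Tsc22d3 goes from 24.2 to 22.5 and then up to 33.9 CPM, while Fkbp5 and Per1 keep no order.

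The genes that differed most between stromal cells with and without Hsd11b2 were taken from 9340 ranked genes. They are the extremes of that ranking, so their size cannot be set against the response genes, which were chosen by name. By the limit of the interval nearer to 1 in both libraries, the first gene was Rorb, which encodes an orphan nuclear receptor, 7.47-fold higher in control (5.20 to 10.8) and 4.15-fold in the cKO (3.74 to 4.604). The next were Atp8a1, a phospholipid flippase gene, at 4.86 and 4.14-fold, Slc26a7, an anion exchanger gene, at 16.4 and 4.92-fold, Scd2, a fatty-acid desaturase gene, at 3.92 and 3.34-fold, and P2ry14, a nucleotide-sugar receptor gene, at 5.43 and 3.32-fold. The lowest were Cxcl5 at 0.157 and 0.156-fold, Il6 at 0.148 and 0.115-fold, Ptx3 at 0.148 and 0.248-fold, and Ch25h (0.141-fold in the cKO) and Ccl21a (0.129-fold in the cKO) with 0 UMIs in control cells with Hsd11b2. Cxcl5 and Il6 are a chemokine and a cytokine gene that glucocorticoids are known to repress, and the part of glucocorticoids in these values was not tested. As a description over the 12 sums of class and library, the genes most like Hsd11b2 were Vit, Sox5 and Hoxd4, with Pearson correlations of 0.96, 0.95 and 0.95 on log2(CPM + 10). For Hsd11b1 they were Emc4, Cygb and Podn (0.93, 0.91 and 0.90), and for Zbtb16 Bcl11b, Cd247 and Zap70 (0.99 each). The 12 sums share libraries and depth.

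Stromal cells were next divided by genes that mark stromal groups named earlier from these same data. The gates may overlap, and deeper cells pass them more easily. Cells with Rorb or Syt2 made up 7.48% of control stroma (51 cells) and 29.4% of cKO stroma (468 cells). They held 30.6% of all stromal Hsd11b2 UMIs in control and 69.0% in the cKO. In control the cells with at least 2 of Cilp, Sfrp4 and Gpr83 held more, 48.7%, against 23.8% in the cKO. The Hsd11b2 level of the Rorb or Syt2 cells was 96.5 CPM in control (76.9 to 120, 83 UMIs in 8 cells) and 251 CPM in the cKO (242 to 260, 2872 UMIs in 342 cells), a ratio of 2.60 (2.09 to 3.27). Cells with at least 2 of Cyp26b1, Dio2 and Prrx2 made up 2.93% (20 cells) and 19.9% (317 cells), with 94.9 and 216 CPM, a ratio of 2.28 (1.67 to 3.20). In the cKO 209 cells passed both gates. Of the Rorb or Syt2 cells, 15 of 51 in control and 4 of 468 in the cKO also passed the gate of Inmt, Myoc and Scara5. The part of this overlap in the ratio of 2.60 was not tested. Rorb was itself the gene named first for cells with Hsd11b2, so these gates and that split are not independent. The Rorb and Syt2 group was also named together with Hsd11b2 from these data, so its high Hsd11b2 level is no separate support. Among all genes 8.69% were at least 2-fold higher and 11.9% at least 2-fold lower in the Rorb or Syt2 cells, and 13.0% and 10.6% in the Cyp26b1, Dio2 and Prrx2 cells.

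Hsd11b2 did not differ beyond counting error in cells with at least 2 of Cilp, Sfrp4 and Gpr83, at 82.0 CPM in 81 control cells and 89.0 CPM in 498 cKO cells, a ratio of 1.09 (0.905 to 1.31). Both groups with few Hsd11b2 UMIs in control differed more. Those with at least 2 of Inmt, Myoc and Scara5 had 3.76 CPM in 105 control cells (7 UMIs) and 121 CPM in 46 cKO cells (142 UMIs), a ratio of 32.1 (15.2 to 81.4). Of these Inmt cells 19 of 105 in control and 29 of 46 in the cKO also passed the Cilp gate, and the part of this overlap in the ratio was not tested. Those with both Il6 and Cxcl5 had 2.17 CPM in 43 control cells (2 UMIs) and 31.5 CPM in 134 cKO cells (86 UMIs), a ratio of 14.5 (3.91 to 122). The shares of all genes at least 2-fold higher and lower were 5.28% and 7.18% in the Cilp group, 6.69% and 8.16% in the Inmt group, and 6.23% and 5.89% in the Il6 and Cxcl5 group. Cells in no gate had 21.5 and 67.9 CPM, a ratio of 3.17 (2.57 to 3.93), where 4.24% and 4.98% of all genes passed 2-fold. In the cKO the Il6 and Cxcl5 cells lay below the cell-free 82.7 CPM. The intervals of the Cilp group (83.6 to 94.7) and of the cells in no gate (61.8 to 74.6) overlapped the cell-free interval, and the part of cell-free RNA in these ratios was not tested.

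The other enzyme and the receptor divided the same groups differently. Hsd11b1 was highest in the Inmt, Myoc and Scara5 cells in both libraries, at 26.8 CPM in control (19.9 to 35.4) and 16.2 CPM in the cKO (9.73 to 25.2), and low in the Cyp26b1, Dio2 and Prrx2 cells at 4.74 and 5.84 CPM. The intervals of the Inmt and the Cilp groups overlapped in both libraries, the latter at 16.8 and 13.9 CPM. The cKO to control ratio of Hsd11b1 was 0.831 (0.549 to 1.30) in the Cilp, 0.629 (0.302 to 1.52) in the Rorb or Syt2 and 0.602 (0.335 to 1.04) in the Inmt group. It was 1.55 (0.671 to 4.15) in the Il6 and Cxcl5 and 1.23 (0.324 to 10.4) in the Cyp26b1 group. The Inmt group, with the highest level, was 15.4% of control stroma and 2.89% of cKO stroma, and the part of these shares in the stromal ratio was not tested. Nr3c1 was 0.364-fold (0.311 to 0.429) as high in cKO as in control Rorb or Syt2 cells, at 217 and 79.2 CPM. It was 0.480-fold in the Inmt group, 0.611-fold in cells with no gate and 0.698-fold (0.507 to 0.987) in the Cyp26b1 group, but 0.912-fold (0.787 to 1.06) in the Cilp group and 0.949-fold (0.751 to 1.21) in the Il6 and Cxcl5 group. The Inmt group held Nr3c1 at 230 CPM in control, and 15 of 51 control but 4 of 468 cKO Rorb or Syt2 cells also passed its gate. The part of this overlap in the ratio of 0.364 was not tested. Tsc22d3 was lower in the cKO Inmt group, at 32.2 and 12.8 CPM (ratio 0.396, 0.209 to 0.706), and higher in cells with no gate, at 16.9 and 30.4 CPM (ratio 1.80, 1.40 to 2.34). Fkbp5 stayed between 6.50 and 13.95 CPM in every group of both libraries.

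**Figure D4:**
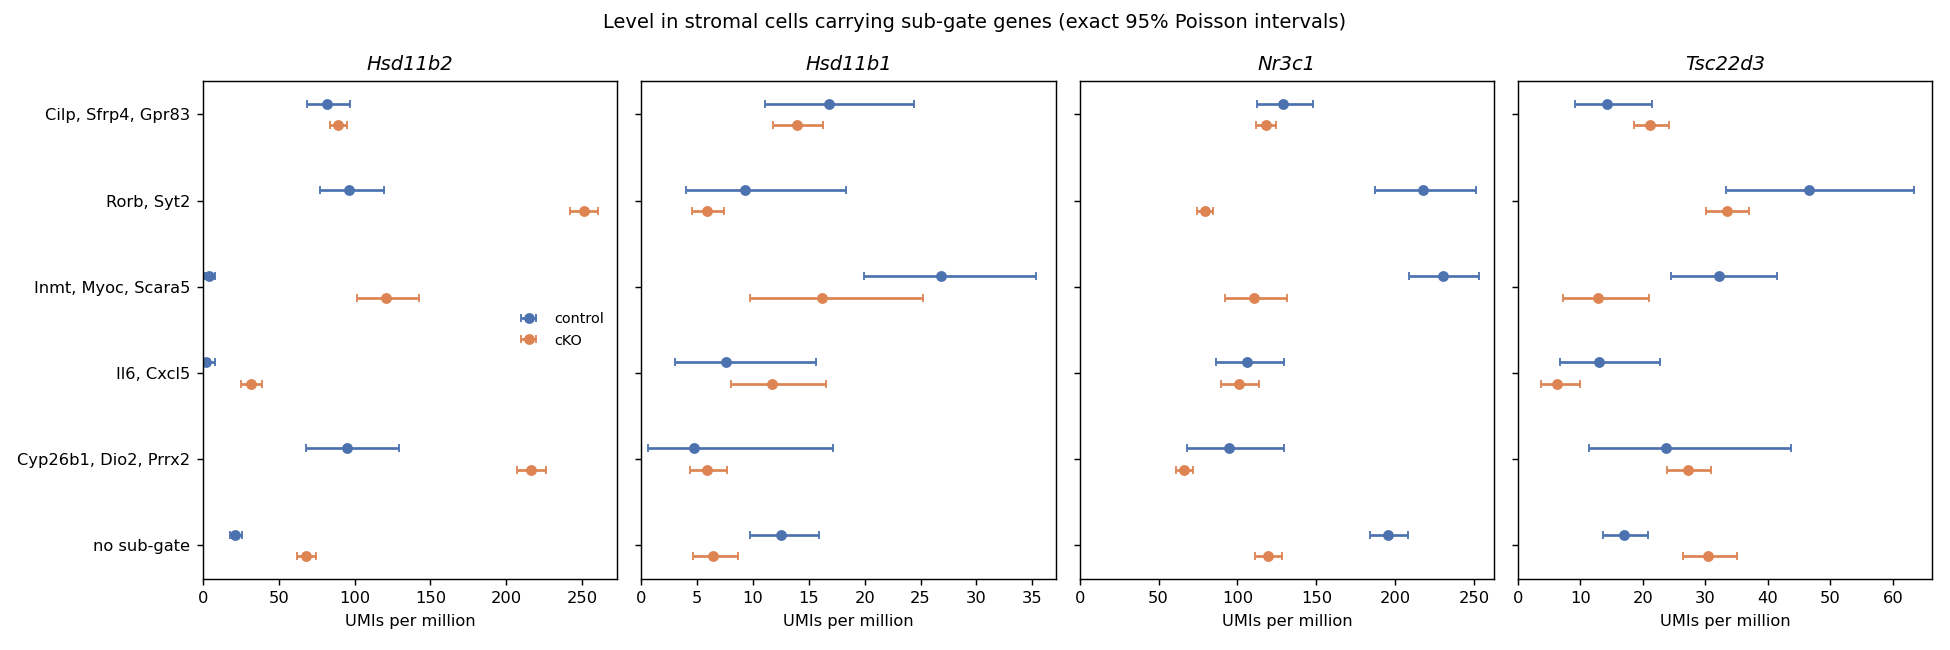
Levels of Hsd11b2, Hsd11b1, Nr3c1 and Tsc22d3 in stromal cells carrying each set of group genes, in CPM with exact 95% Poisson intervals, for control and cKO. Hsd11b2 reaches 251 CPM in cKO cells with Rorb or Syt2 and is nearly level between libraries in the Cilp, Sfrp4 and Gpr83 cells.

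Other genes of the pathway gave no common direction in stroma. Of 20 genes known to be induced by glucocorticoids, all passed 20 UMIs, 2 were at least 2-fold higher in the cKO and 2 at least 2-fold lower, where 5.2% of all genes were that much higher and 7.92% that much lower. Their median log2 ratio was -0.02, against -0.04 over all genes. The higher were Il1r2, a decoy receptor gene (4.43 and 24.8 CPM, ratio 5.59, 4.09 to 7.83), and Rgs2, a regulator of G-protein signalling (22.3 and 52.4 CPM, ratio 2.34, 2.03 to 2.72). The lower were Angptl4, a lipase inhibitor gene (26.1 and 8.79 CPM, ratio 0.336, 0.281 to 0.402), and Lcn2 (30.8 and 1.72 CPM, ratio 0.0560, 0.0406 to 0.0758). Lcn2 is mainly an epithelial gene, and epithelial markers in the cell-free barcodes summed to 3706 CPM in control and 476 in the cKO, whose part in the stromal Lcn2 values was not tested. Cebpd was 1.44-fold higher and Arrdc2 0.569-fold as high.

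In lymphoid cells 5 of 16 measured genes of the same list were at least 2-fold higher and 1 at least 2-fold lower, where 8.56% and 3.38% of all genes were. Their median log2 ratio was 0.54 against 0.12 over all genes. The higher genes were Sgk1 (2.91-fold), Klf9 (2.93-fold), Mt1 (2.06-fold), Mt2 (2.28-fold) and Errfi1 (2.46-fold), named after their values were seen, and the lower was Lcn2. Lymphoid cells also held markers of dendritic cells at 131 CPM in control and 1489 CPM in the cKO, and stromal markers at 213 and 290 CPM. Stroma held Sgk1 at 888 and 827 CPM and Errfi1 at 1388 and 1500.45 CPM. The part of those cells in the lymphoid values was not tested.

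The chaperones and coregulators of the receptor stayed within 2-fold in stroma for all 12 genes, where 5.2% of all genes were at least 2-fold higher and 7.92% lower, so a count of 0 is near that background. Hsp90aa1 and Hspa8, which fold the receptor, were 0.793 and 0.851-fold as high in the cKO, Ncoa3 0.746-fold, and the coregulator genes Ncoa1 and Nrip1 were 1.66 and 1.30-fold higher. Of 13 genes for steroid synthesis, transport and cofactor supply, 5 passed 20 UMIs in stroma and none passed 2-fold, against the same background. H6pd, which supplies the cofactor of the Hsd11b1 reductase, was 68.1 and 83.8 CPM, a ratio of 1.23 (1.13 to 1.34). Star, which moves cholesterol into mitochondria, was 0.561-fold as high, and the efflux pump genes Abcb1a and Abcb1b, whose product exports corticosteroids, were 1.92 and 1.30-fold higher. In stromal cells with Hsd11b2, H6pd was 0.419-fold (0.298 to 0.576) as high in control and 0.779-fold (0.719 to 0.844) in the cKO as in those without.

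Among mineralocorticoid effectors 6 of 7 passed 20 UMIs in stroma and none passed 2-fold, again near the background. Sgk1, the kinase that stabilises sodium channels, was 888 and 827 CPM, a ratio of 0.931 (0.908 to 0.954). Scnn1b, a sodium channel subunit gene, was 1.64-fold higher, while Atp1b1 and Nedd4l were 0.544 and 0.595-fold as high. Of 15 clock genes, 2 were at least 2-fold lower in stroma, Bhlhe41 at 0.439-fold and Dbp on 10 and 13 UMIs, and none higher, where 7.92% of all genes were lower and 5.2% higher. Bhlhe40, Cry1 and Per2 were 1.62, 1.34 and 1.26-fold higher and Nr1d1 and Nr1d2 0.563 and 0.616-fold as high. In the mixed Epcam gate 4 clock genes were at least 2-fold lower in the cKO (Nr1d1 at 0.305-fold, Dbp at 0.267, Bhlhe41 at 0.461 and Per3 at 0.483) and 2 higher (Clock at 2.57 and Hlf at 2.32), chosen after their values were seen. There 9.44% of all genes were at least 2-fold lower and 29.8% higher. The median log2 ratio of the 15 clock genes was -0.76 against 0.47 over all genes.

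None of the 12 immediate early and dissociation-stress genes passed 2-fold between the libraries in stroma, near the background of 5.2% higher and 7.92% lower, the highest being Hspa1a at just under 2.00-fold, Jund at 1.89-fold and Fosb at 1.54-fold. Atf3, Egr1 and Zfp36 were 0.847, 0.963 and 1.02-fold as high. In the other classes several did, named after their values were seen. In macrophages 3 of 12 were higher (Hspa1a, Hspa1b at 3.44-fold and Ier2 at 2.08-fold) and 1 lower (Atf3), where 12.1% and 3.89% of all genes were. In dendritic cells 4 were higher (Hspa1a, Hspa1b at 12.3-fold, Fosb at 2.42-fold and Nr4a1 at 2.09-fold) and 1 lower (Fos), against 15.6% and 5.02%. In lymphoid cells 3 were higher (Jun at 2.02-fold, Junb at 2.14-fold and Zfp36 at 2.61-fold) and none lower, against 8.56% and 3.38%. In muscle 2 were higher (Hspa1a and Hspa1b) and 3 lower (Fos, Egr1 and Nr4a1), against 7.44% and 4.07%, and in the Epcam gate 1 was higher (Hspa1a) and 2 lower (Junb and Zfp36), against 29.8% and 9.44%. Their part in the members' ratios was not tested. Between stromal cells with and without Hsd11b2, however, the heat-shock genes Hspa1a and Hspa1b were higher in both libraries, at 3.35 and 3.76-fold in control and 2.92 and 2.41-fold in the cKO. Their part in the split was not tested. Esr1 and Pgr, which encode the oestrogen receptor alpha and the progesterone receptor, were 1.95-fold (1.80 to 2.10) and 1.55-fold (1.50 to 1.60) higher in cKO stroma, where Nr3c1 and Nr3c2 were lower.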

How the data were processed

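The authors deposited unfiltered matrices of raw UMI counts per gene and barcode, 1 per library. They were made with Cell Ranger 6.1.1 on mm10 per the submitters' processing notes, while the matrix headers name Cell Ranger 4. Library size covers all UMIs, 45035801 in control and 57145553 in cKO.

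Counts were summed over the cells of a class and library and given as CPM of that sum with exact Poisson intervals. Ratios have exact conditional binomial intervals and shares exact (Clopper-Pearson) ones. A share of 0 is given with the 3 counts it allows. Genes with at least 20 UMIs over both sums were counted as past 2-fold with a pseudocount of 0.5 UMI. A cell joined a class if its gate gene had at least 1 UMI and more than every other gate; tied cells and cells with none were ungated. Scrublet scores above 0.25 marked 42 control (1.15%) and 60 cKO cells (1.21%), which were kept in the main values. Thinning used 1000 UMIs per cell and left out shallower cells. Cell-free RNA came from barcodes with at most 100 UMIs. A processing alternative subtracted it at an assumed 5% of the UMIs of a class, a share that was not measured in the cells. Coordinates are from GENCODE M21 on GRCm38, the build named mm10.

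The members and gene lists were chosen with earlier results of these data known. Named are all members, the up to 3 highest and 3 lowest stromal ratios of each list among genes with at least 50 UMIs, the 5 highest and 5 lowest genes of the Hsd11b2 split, and the 3 genes most like Hsd11b2, Hsd11b1 and Zbtb16. Some genes that this rule names are not reported here. The keratin-led subset was chosen after seeing the data. Summing and intervals were checked on simulated counts. Tools were Python 3.11.15, numpy 2.4.6, scipy 1.17.1, scanpy 1.11.5 and, for TMM factors, edgeR 4.0.16. Nr3c1, Hsd11b2 and Zbtb16 promoter windows and protein sequences were not used here.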

Additional observations from a re-analysis of the deposited data

Results flagged for a closer look

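Classes moved in opposite directions for 3 genes, with intervals on either side of 1; the differences between classes were not tested. Hsd11b1 was 17.3-fold higher in cKO Epcam-gated cells (keratin-led 24.1-fold) and 0.619-fold as high in stroma. Nr3c1 was 1.62-fold in Epcam-gated cells and 1.28-fold in lymphoid cells against 0.541-fold in stroma and 0.801-fold in macrophages, and its epithelial value turned to 0.703-fold in keratin-led cells. Per1 was 1.89-fold in macrophages on 23 and 27 UMIs and 0.619-fold in Epcam-gated cells (keratin-led 0.209-fold). The macrophage and Epcam-gate directions both turned with thinned cells, to log2 ratios of -0.65 and 0.12, the latter also to 0.40 as a mean over cells.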

How the results depend on the processing

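No paired analysis was possible because each group is 1 library. All values here are log2 ratios unless stated, and the cause of each change was not tested. Of 163 alternative values for the leading results, 149 stayed within the interval of the main value, 13 lay outside it and 1 turned the sign of a value whose interval excluded 0. Stromal Hsd11b2 kept its direction under every alternative run. Stromal Nr3c1 (-0.89) was -0.78 as a mean over cells, -0.57 with thinned cells and -0.80 with TMM factors. Hsd11b2 in stroma over epithelium in the cKO (2.95) was 4.12 with at least 2 gate UMIs, 1.70 as a mean over cells, 2.00 thinned, 3.38 without the top cell and 3.64 against keratin-led cells. In the split by Hsd11b2, control Fkbp5 (-0.38) was -1.54 with the other gate genes at 0 and turned to 0.88 thinned, control Tsc22d3 (0.32) was 1.23 thinned, cKO Tsc22d3 (0.34) changed sign to -0.15 thinned, and cKO Per1 (-0.23) turned to 0.23 thinned; the main intervals of Fkbp5 and Per1 include 0. With at least 50 UMIs in place of 20, 0 members were 2-fold lower in stroma in place of 1. For 38 other results, 366 of 406 values stayed within the interval, 36 lay outside it and 4 turned the sign of a value whose interval excluded 0: Per1 in Epcam-gated cells to 0.40 as a mean over cells and 0.12 thinned, Per1 in macrophages to -0.65 thinned and Nr3c1 in Epcam-gated cells to -0.50 in keratin-led cells. Thinning leaves few UMIs of genes at these levels, and 71 keratin-led and 46 control dendritic cells limit those classes.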

Other observations

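Ungated cells with at least 2 UMIs of a further marker gave members' levels in smaller groups. Mast cells (Cpa3, 44 control and 33 cKO cells) held Nr3c1 at 684 CPM (508 to 902) and 676 CPM (500.1 to 894), close to the level of T-gated cells, and Tsc22d3 at 164 and 152 CPM. B cells (Cd79a, 16 and 7 cells) held Tsc22d3 at 394 CPM in control (280 to 539, 39 UMIs) and 180 CPM in the cKO (77.9 to 356, 8 UMIs). The control interval lay above that of every gated control class, and the cKO interval overlapped that of lymphoid cells. Mesothelial cells (Upk3b, 26 and 37 cells) had Tsc22d3 at 121 and 125 CPM.

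Nr3c2, sparse in the gated classes, reached 28.9 CPM (18.9 to 42.3, 26 UMIs) in 33 cKO lymphatic endothelial cells (Mmrn1), against 2 UMIs, 5.76 CPM (0.698 to 20.8), in 16 control cells. The same cells held Nr3c1 at 303 and 259 CPM and Hsd11b2 at 0 UMIs in both libraries, although the cell-free level of Hsd11b2 in the cKO was 82.7 CPM; 0 of 899950 UMIs allows up to 3.33 CPM.

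The 1103 control and 1821 cKO cells left in no gate held Tsc22d3 at 58.1 CPM (51.1 to 65.8) and 140.0 CPM (132 to 148), and Hsd11b2 at 6.09 and 83.6 CPM, the latter close to the cell-free 82.7 CPM.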
